A study of Rattus norvegicus with 18 samples.

Results

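A group of 7 liver genes, called members here, was followed because their signal was much higher in rats given carbon tetrachloride (CCl4) than in controls: Cox6a2, Sdcbp2, Acsm5, Colq, Gucy2c, Aard and Fut1. They are 7 of 15645 genes matched on the arrays and 7 of the 10914 genes tested. Each gene is represented by its brightest probe, the one with the highest mean over the 18 arrays. Because the genes were picked on CCl4 against control, the values of that contrast are given as a description with no test, and the same holds for CCl4 against DEN and for changes between days within CCl4 or within the controls. Tests on the members are given for DEN against control and for the difference of that effect between the days. Where the fit's calls between control days are counted, they are not read as tests.

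Liver RNA came from male F344 rats (F344/NSlc) bought at 5 weeks of age and acclimatized for a week, with 1 rat per array and 3 per group. The 6 groups were controls, rats given N-nitrosodiethylamine (DEN, a nitrosamine that alkylates DNA) at 4 mg/kg in saline, and rats given CCl4 (a solvent that injures hepatocytes) at 100 mg/kg in corn oil, each at day 28 and day 84. Dosing was daily by gavage at 5 mL/kg, and all rats ate a basal diet. The controls are named vehicle in their titles and untreated in the protocol, so it is not settled whether they were gavaged. The series title concerns genes that non-genotoxic hepatocarcinogens lower in liver. The members are the opposite kind, genes whose signal was high with CCl4.

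The members come from unrelated families. Cox6a2 encodes the heart and muscle isoform of a small subunit of cytochrome c oxidase, the last enzyme of the respiratory chain; liver normally uses the isoform Cox6a1. Acsm5 encodes a mitochondrial medium-chain acyl-CoA synthetase, an enzyme class that activates medium-chain fatty acids. Sdcbp2 encodes syntenin-2, a PDZ adaptor related to the syndecan-binding protein syntenin-1. Gucy2c encodes guanylate cyclase C, the intestinal receptor of guanylin and uroguanylin, which makes cyclic GMP. Fut1 encodes an enzyme that adds fucose to galactose at the ends of glycans. Colq encodes the collagen tail that anchors acetylcholinesterase in the matrix of the neuromuscular junction. Aard encodes a small protein rich in alanine and arginine whose function is little known.

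Promoter sequences were at hand for 3 of the 7 members, Cox6a2, Sdcbp2 and Acsm5, in a RefSeq table of the rat assembly GRCr8. They are shown because all 3 genes were high with CCl4 on both days, and only the 250 bases before each annotated start are printed, 5′ to 3′ on the gene's strand. Capitals mark matches, on either strand, to any of 9 short motifs, which are spelled out after the sequences.
Cox6a2 (chr1:192219717-192219966, GRCr8, minus strand): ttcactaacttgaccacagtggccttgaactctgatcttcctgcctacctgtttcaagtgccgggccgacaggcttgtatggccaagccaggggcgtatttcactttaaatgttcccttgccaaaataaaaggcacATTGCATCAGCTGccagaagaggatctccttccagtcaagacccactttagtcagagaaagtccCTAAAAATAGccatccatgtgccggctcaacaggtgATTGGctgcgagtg
Acsm5 (chr1:183302259-183302508, GRCr8, plus strand): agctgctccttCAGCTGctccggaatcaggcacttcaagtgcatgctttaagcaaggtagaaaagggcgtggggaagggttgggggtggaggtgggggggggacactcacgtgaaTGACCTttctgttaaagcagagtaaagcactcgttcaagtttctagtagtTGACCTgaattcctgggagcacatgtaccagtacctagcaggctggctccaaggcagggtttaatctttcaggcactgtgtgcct
Sdcbp2 (chr3:160530677-160530926, GRCr8, plus strand): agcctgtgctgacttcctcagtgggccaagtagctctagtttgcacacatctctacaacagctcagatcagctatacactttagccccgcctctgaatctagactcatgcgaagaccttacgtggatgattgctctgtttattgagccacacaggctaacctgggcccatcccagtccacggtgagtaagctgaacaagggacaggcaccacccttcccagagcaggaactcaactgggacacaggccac

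The Cox6a2 window held 4 of the motifs. The E-box CAGCTG, a form bound by muscle transcription factors of the MyoD family, lay at bases -107 to -102 from the start, and 12% of all 33469 upstream windows of this length hold it. The core of sites for MEF2, a muscle transcription factor family (CTANNNNTAG), lay at bases -50 to -41; 3.41% of windows hold it. The composite C/EBP-ATF element TGATGNAAT (0.944% of windows) lay at bases -114 to -106 and overlaps the E-box, and a reversed CCAAT box (CCAAT, 34% of windows) lay at bases -14 to -10. The Acsm5 window held the E-box once and the nuclear receptor half-site AGGTCA (14.1% of windows) at 2 places, bases -135 to -130 and -85 to -80. None of the 9 motifs was found in the Sdcbp2 window, which says only that these letters are not there. The other motifs searched were the AP-1 site TGANTCA (6.34%), the antioxidant response element core TGACNNNGC (10.1%), TATAAA (12.9%) and GGGCGG (30.5%). These matches are letters in a window and were not tested as sites.

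Signals are given as log2 of the processed signal minus the 75th percentile of the same array, so that 0 is the level of the 75th percentile and each step of 1 is a doubling. A probe counts as detected when the scanner software calls it well above background. Where no array of the dimmer group detected a probe, the fold is a bound (at least N-fold): it sets the brighter group's mean against a mean in which each dim array counts with the higher of its lowest detected signal and the probe's own signal. Of 61537 probes, an array detected from 47.2% up to 57.0%. The 75th percentile itself was higher over 8 spike-in probes in treated arrays than in same-day controls, at day 28 by 0.40 (DEN) and 0.80 (CCl4), at day 84 by 0.70 (DEN) and 0.55 (CCl4), and directions are relative to that percentile. One array, replicate 2 of CCl4 at day 28, stood apart on the first principal component (58.9% of the variance), at 75.7 against 38.1 and 25.4 for the others of its group. All 12 hepatocyte markers (Alb, Apoa1, Ttr and others) were detected on arrays of every group, as the label liver has it.

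Cox6a2 and Acsm5 were detected on all 6 control arrays. Cox6a2 was low but not dim there, with control means of -2.27 at day 28 and -2.53 at day 84. Acsm5 was not low, with control means of -0.37 at day 28 and 2.20 at day 84. Sdcbp2, Gucy2c and Aard were detected on 0 of 6, Colq on 1 of 6 and Fut1 on 3 of 6, all 3 of those at day 84. All 7 members passed the filter, which asks for detection on all 3 arrays of at least 1 group, but Aard passed it through the CCl4 group at day 84 alone. With CCl4 the arrays lay above all same-day controls, without overlap, for 6 of 7 members at day 28 and for 6 of 7 at day 84. Among all genes tested this holds for 26.1% and 31% of genes, and since the members were picked on this contrast nothing is read from the comparison. The exceptions were Aard at day 28 and Fut1 at day 84. The median difference of the 7 members was 5.74 at day 28 and 4.94 at day 84, beside -0.06 and -0.10 for all genes tested; with differences against undetected controls set at their bounds it was 4.14 and 3.38.

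**Figure D1:**
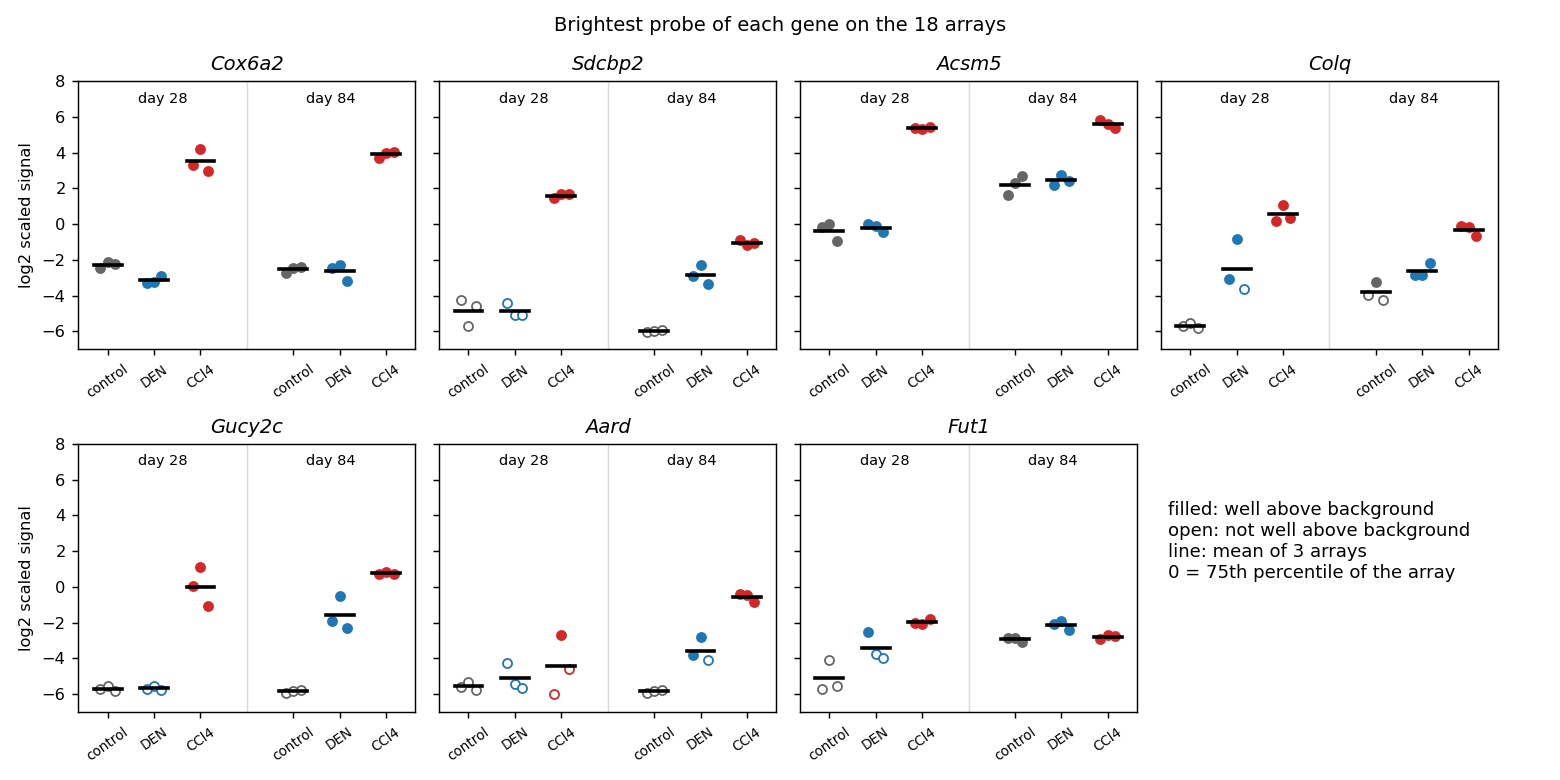
Log2 scaled signal (vertical axis, 0 is the array's 75th percentile) of the brightest probe of each member on the 18 arrays, by group and day; filled points are arrays with the probe well above background, open points are not, and lines are means of 3 arrays. CCl4 arrays lie above same-day controls for every member except Aard at day 28 and Fut1 at day 84.

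Cox6a2, the muscle isoform of the oxidase subunit, read -2.43, -2.14 and -2.23 in the controls at day 28. The CCl4 arrays of that day read 3.32, 4.22 and 3.00. At day 84 the controls read -2.75, -2.47 and -2.37, and the CCl4 arrays 3.71, 3.96 and 4.04. Every CCl4 array was thus brighter than the 75th percentile of all probes and every control array was below it. The difference was 5.78 at day 28 (54.9-fold) and 6.43 at day 84 (86.4-fold). Arrays of DEN read -3.27, -3.23 and -2.91 at day 28 and -2.46, -2.28 and -3.19 at day 84, close to or below the controls. Without replicate 2 of CCl4 at day 28 the difference at that day was 5.42. The second probe of Cox6a2 was dimmer with CCl4 but brighter in controls. Its control means were -1.81 at day 28 and -1.11 at day 84, against -2.27 and -2.53. It gave smaller differences, 2.99 at day 28 and 2.61 at day 84. The third probe was dimmer in all groups. It gave at least 8.89-fold over undetected controls at day 28 and a difference of 3.09 at day 84, again without overlap.

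Acsm5, the acyl-CoA synthetase, was the brightest member. At day 28 the controls read -0.14, 0.01 and -0.97 and the CCl4 arrays 5.35, 5.33 and 5.43. By day 84 the controls read 1.62, 2.29 and 2.68 and the CCl4 arrays 5.80, 5.57 and 5.37. The CCl4 arrays thus sat at about the same level on both days, while the controls were higher at day 84. The difference was 5.74 at day 28 (53.4-fold) and 3.38 at day 84 (10.4-fold). Arrays of DEN followed the controls of their day, at 0.02, -0.13 and -0.46 and then 2.18, 2.77 and 2.43. The other 2 probes were undetected in controls at day 28, where CCl4 was at least 40.1-fold and 36.6-fold above them, and gave measured differences of 3.83 and 4.18 at day 84.

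Sdcbp2, the syntenin-2 gene, was not detected on any control array, which read -4.26, -5.68 and -4.57 at day 28 and -6.02, -6.00 and -5.90 at day 84. With CCl4 it read 1.45, 1.66 and 1.66 at day 28, a signal at least 36.3-fold above controls. By day 84 the CCl4 arrays read -0.88, -1.19 and -1.04, at least 6.62-fold above controls. The 2 days of CCl4 did not overlap, and day 84 was lower by 2.62 on the log2 scale. With DEN it was below background at day 28, at -4.39, -5.08 and -5.08, and detected on all 3 arrays at day 84, at -2.90, -2.29 and -3.33. The second probe of Sdcbp2 differed from the brightest one: it was detected in the CCl4 group at day 28 (at least 1.39-fold above controls) and on no other array, DEN and CCl4 at day 84 included.

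Colq, the collagen tail of acetylcholinesterase, read -5.69, -5.52 and -5.82 in the controls at day 28, all below background. The CCl4 arrays of that day read 0.20, 1.1 and 0.36, at least 17.7-fold above them. Controls of day 84 read -3.94, -3.26 and -4.23, with 1 of 3 detected, and the CCl4 arrays -0.10, -0.18 and -0.67, a difference of 3.49 (11.2-fold). The DEN arrays lay between both groups at each day, at -3.04, -0.83 and -3.63 and then -2.82, -2.85 and -2.15. Replicate 2 of DEN at day 28 stood above the other two of its group by more than 2 steps on the log2 scale. The second probe was undetected on all controls, and CCl4 was at least 7.41-fold above them at day 28 and 4.60-fold at day 84.

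Gucy2c, the guanylin receptor, was below background on all control arrays, between -5.95 and -5.54. With CCl4 it read 0.03, 1.08 and -1.07 at day 28, at least 12.2-fold above controls, and 0.72, 0.85 and 0.73 at day 84, at least 23.0-fold above. The spread over the 3 rats was 1.08 (SD) at day 28 and 0.07 at day 84. With DEN it read -5.72, -5.57 and -5.76 at day 28, no different in range from the controls, and -1.92, -0.50 and -2.28 at day 84. Without replicate 2 of CCl4 at day 28 the difference was 5.18 in place of 5.71. Both of its probes were detected on the same arrays, and the second gave bounds of 9.49-fold and 17.1-fold for CCl4.

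Aard had 1 probe, which was below background on all controls, between -5.96 and -5.35. At day 28 the CCl4 arrays read -5.97, -2.70 and -4.60, overlapped the controls, and only replicate 2 detected it. Without that replicate the difference at day 28 was 0.29 in place of 1.15. The CCl4 arrays of day 84 read -0.42, -0.48 and -0.86, at least 9.03-fold above the controls. The DEN arrays of day 84 lay between, at -3.80, -2.81 and -4.10, with 2 of 3 detected. Its high signal with CCl4 thus belongs to day 84.

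Fut1, the fucosyltransferase, showed the reverse order in time. At day 28 the controls read -5.70, -4.07 and -5.57, below background, and the CCl4 arrays -1.99, -2.05 and -1.81, at least 3.12-fold above. At day 84 the controls were detected on all 3 arrays, at -2.86, -2.85 and -3.07, and the CCl4 arrays, at -2.92, -2.67 and -2.77, overlapped them with a difference of 0.14. Arrays of DEN read -2.53, -3.78 and -3.96 at day 28 and -2.10, -1.92 and -2.43 at day 84. The DEN arrays of day 84 were therefore the highest of that day. The second Fut1 probe was below background on all 18 arrays, so the values of Fut1 rest on 1 dim probe.

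**Figure D2:**
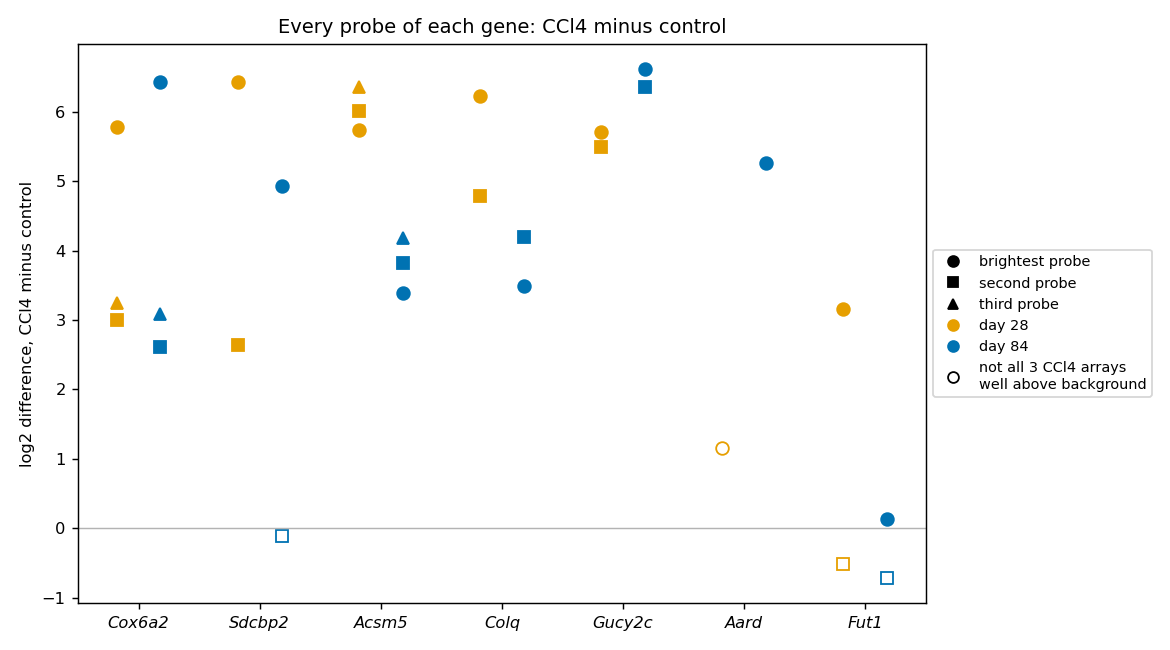
Difference of group means (log2, CCl4 minus control, vertical axis) for every probe of each member, by day (colour) and probe (shape); open symbols are probes not detected on all 3 CCl4 arrays of that day. The brightest Cox6a2 probe stands above the other 2 probes of that gene, the second Sdcbp2 probe lies near 0 at day 84, and both Fut1 probes are near or below 0.14 at day 84; points over undetected controls follow the background level, and their bounds stand in the text.

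The members could be put in order only where their controls were detected. At day 28 that was so for Cox6a2 and Acsm5, whose 54.9-fold and 53.4-fold differences lay closer together than the spread of their arrays. The bounds of Sdcbp2, Colq, Gucy2c and Fut1 lay below these, so their place in the order is not known, and Aard had no bound above 1. At day 84 the measured differences of the brightest probes were 86.4-fold for Cox6a2, 11.2-fold for Colq (1 of 3 controls detected) and 10.4-fold for Acsm5. Colq and Acsm5 were closer than their spread, and Fut1 differed by 0.14 on the log2 scale. The order depends on the probe. At day 28 the other probes gave 7.96-fold and at least 8.89-fold for Cox6a2, and at least 40.1-fold and 36.6-fold for Acsm5. At day 84 they reversed the order, with 6.10-fold and 8.49-fold for Cox6a2 and 14.2-fold and 18.1-fold for Acsm5. Gucy2c, Aard and Sdcbp2 had bounds of 23.0-fold, 9.03-fold and 6.62-fold at that day. Between day 28 and day 84 the CCl4 arrays themselves were higher without overlap for 1 member, Aard, and lower for 3, Sdcbp2, Colq and Fut1, beside 11.7% and 16.3% of all genes tested. For Acsm5 the smaller difference at day 84 went with a control level 2.57 higher at that day.

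CCl4 arrays of 2 slides entered each day. Replicates 2 and 3 of CCl4 at day 84 lay on a slide that held no other array of the series and was scanned on another day. The changes between days within CCl4 are thus mixed in part with slide and scan day. On the slide that held all controls of day 28, replicates 1 and 2 of CCl4 gave differences of 6.04 for Cox6a2, 5.71 for Acsm5, 6.39 for Sdcbp2, 6.32 for Colq, 6.25 for Gucy2c, 1.24 for Aard and 3.09 for Fut1. On the slide that held all controls of day 84, replicate 1 of CCl4 alone gave 6.24, 3.60, 5.09, 3.71, 6.56, 5.42 and 0.0062 for the same genes in that order. Apart from Fut1 at day 84, values within a slide were thus about as large as the pooled ones.

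Whether DEN, the genotoxic compound, moved the members was tested with limma over all 10914 genes with Benjamini-Hochberg adjustment. These tests share their controls with the contrast on which the members were picked, so they are not independent of that choice. At day 28, 2 members rose (7.82% of all genes tested did) and 1 fell (7.19%); 15% of all genes were called in either direction. Colq rose by 3.18 ± 0.53 (SE, n = 3, adjusted p = 0.0016, at least 2.13-fold), yet its second probe was below background in both groups, at a difference of 0.48, and was not called. Fut1 rose by 1.69 ± 0.38 (adjusted p = 0.0109, at least 1.13-fold), and 1 of 3 DEN arrays detected it; without replicate 1 of DEN the limma adjusted p was 0.0526. Cox6a2 fell by 0.87 ± 0.27 (adjusted p = 0.045), and leaving out any 1 of the 6 arrays ended that call, with limma adjusted p from 0.0614 to 0.137. With normexp background correction all 3 calls were lost (Colq 0.57, Fut1 0.080 and Cox6a2 -0.47; limma adjusted p = 0.130, 0.651 and 0.127). Gucy2c and Sdcbp2 differed by 0.02 and -0.02, with 95% intervals of -0.95 to 0.98 and -0.69 to 0.66.

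At day 84, 3 members, Aard among them as a description only, were called higher with DEN and 0 of 7 lower. Among all genes tested 21.6% were called higher, 31.1% lower and 52.7% in either direction. Gucy2c rose by 4.28 ± 0.45 (limma adjusted p = 7.20e-06, at least 4.58-fold) and Sdcbp2 by 3.13 ± 0.32 (adjusted p = 5.36e-06, at least 1.90-fold). With normexp both stayed called at 0.93 and 0.29 (limma adjusted p = 0.0230 and 0.0277). The third call, Aard, is given as a description, since this gene passed the filter only through the CCl4 group it was picked on: it read 2.28 higher, at least 1.14-fold, and 0.026 with normexp, where the call was lost. The second Gucy2c probe gave a bound of 4.25-fold, whereas the second Sdcbp2 probe was below background in both groups. Colq, at 1.20 ± 0.53, and Fut1, at 0.78 ± 0.38, lay above all controls on every DEN array and were not called (limma adjusted p = 0.0698 and 0.104). The second Colq probe was called, at 1.63 (limma adjusted p = 0.000341), with 1 of 3 DEN arrays detected and no bound above 1. Acsm5 and Cox6a2 differed by 0.26 (95% interval -0.32 to 0.85) and -0.11 (-0.70 to 0.47). Both genes were detected on all arrays, and these intervals leave out differences of the size seen with CCl4.

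The DEN effect itself differed between the days for 2 of 7 members (7.64% of all genes tested were higher at day 84, and 16.1% differed in either direction). For Gucy2c the effect at day 84 exceeded that at day 28 by 4.26 ± 0.63 (limma adjusted p = 0.000946), and for Sdcbp2 by 3.15 ± 0.45 (adjusted p = 0.000746). The Sdcbp2 value includes a shift of -1.13 between its controls, which were undetected on both days. The DEN arrays alone were 2.01 higher at day 84 for Sdcbp2 (at least 1.85-fold) and 4.12 higher for Gucy2c (at least 4.47-fold). With normexp the Gucy2c value fell to 1.18 and its call was lost (limma adjusted p = 0.0909), while Sdcbp2 read 0.51 and stayed called (adjusted p = 0.0316). The second Gucy2c probe gave 4.47 (limma adjusted p = 0.000848) and the second Sdcbp2 probe, below background in these groups, -0.26 (adjusted p = 0.709). For Colq the effect was smaller at day 84 by -1.97 ± 0.75, which was not called (limma adjusted p = 0.0865).

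Set beside DEN as a description, CCl4 arrays were higher without overlap for 6 of 7 members at day 28 and 6 of 7 at day 84 (24.5% and 25.4% of all genes tested). Cox6a2 was 100.4-fold and 93.5-fold and Acsm5 47.2-fold and 8.69-fold above DEN. Gucy2c, detected with both compounds at day 84, was 5.03-fold higher with CCl4 there, Sdcbp2 3.49-fold and Aard 7.90-fold. Fut1 at day 84 was the exception, lower with CCl4 than with DEN by 0.64 on the log2 scale.

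**Figure D3:**
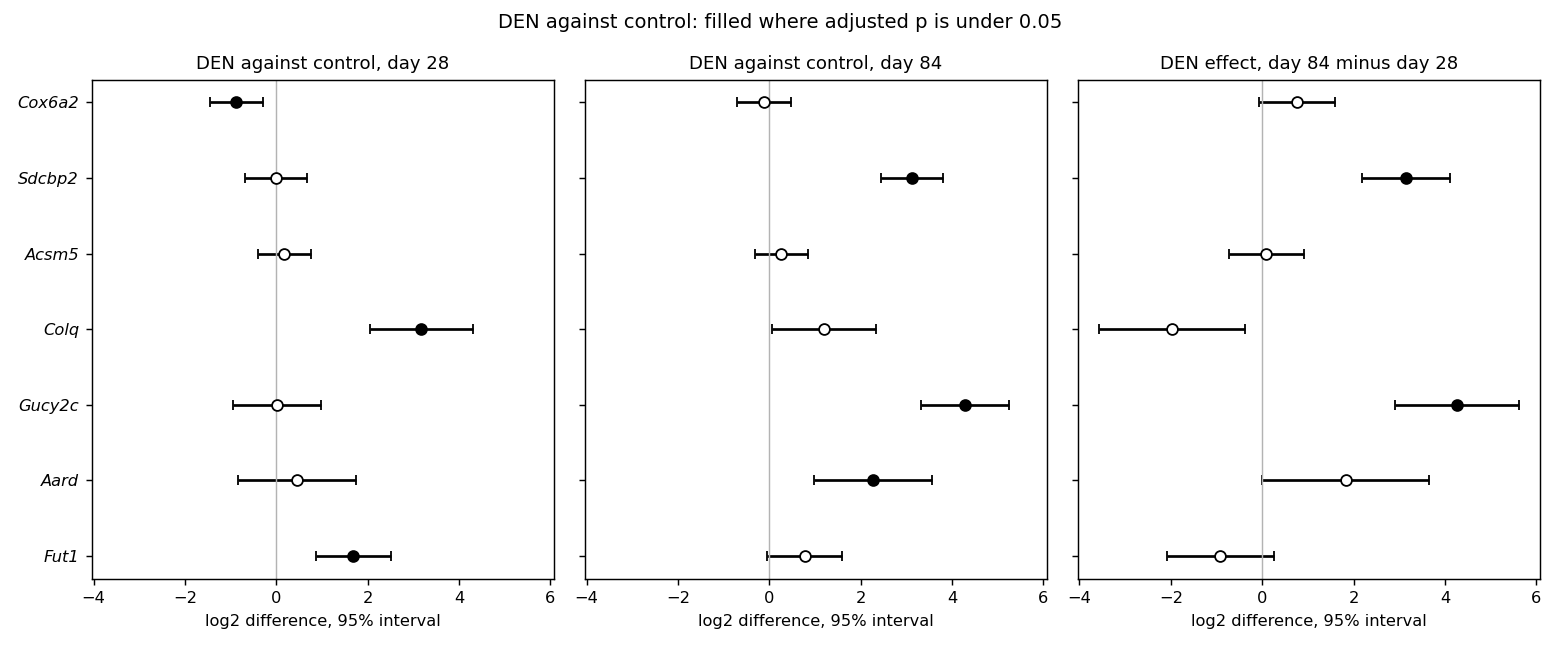
Log2 differences with 95% intervals of the limma fit (horizontal axis) for the 7 members, for DEN against control at each day and for the DEN effect at day 84 minus that at day 28; filled points have an adjusted p under 0.05. Colq, Fut1 and Cox6a2 are filled at day 28, Gucy2c, Sdcbp2 and Aard at day 84, and Gucy2c and Sdcbp2 for the difference between the days. Aard passed the filter only through the CCl4 group it was picked on, so its points are a description and not a test.

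The controls of the 2 days are described without a test, because low signal in controls was part of how the members were picked. From day 28 to day 84, the fit called 3 members higher and 1 lower, beside 4.44% and 5.32% of all genes tested (9.77% in either direction), and nothing is read from these counts. Acsm5 read 2.57 higher at day 84, Fut1 2.18 higher (at least 1.59-fold) and Colq 1.87 higher (no bound above 1), while Sdcbp2 read -1.13 between levels that were both below background. All controls of a day sat on 1 slide together with treated arrays, and the slide differed between the days. Day and slide therefore cannot be told apart among the controls. With slide as a block, which draws on CCl4 arrays of day 28 on both slides, 49 of 10914 genes were called in place of 1066 and no member was among them; Acsm5, Colq and Fut1 then read 2.47, 2.16 and 1.97. The other 2 Acsm5 probes were undetected in controls at day 28 and gave bounds of 3.40-fold and 2.44-fold, while the second Colq probe read -0.27.

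Genes of the same families, complexes or pathways as the members, called partner genes, were counted from lists of 86 genes, of which 62 were tested. Aard had no list. With CCl4, 14 of the 62 rose and 25 fell at day 28, and 24 rose and 23 fell at day 84. Among all genes 26.1% and 33.6% did so at day 28, and 28% and 36.3% at day 84. With DEN, 2 rose and 5 fell at day 28, and 14 rose and 24 fell at day 84. The shares of all genes with DEN were 7.82% and 7.19% at day 28, and 21.6% and 31.1% at day 84.

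Of 13 tested subunits of cytochrome c oxidase other than Cox6a2, 1 rose and 9 fell with CCl4 at day 28, and 2 rose and 9 fell at day 84. Cox6a1, the isoform of the same subunit used in liver, fell by 0.51 ± 0.07 at day 28 (limma adjusted p = 2.28e-05) and by 0.42 at day 84. The same falls, between 0.30 and 0.67 at day 28, were found for Cox4i1, Cox5a, Cox5b, Cox6b1, Cox6c, Cox7a2, Cox7b and Cox8a. At day 84 they lay between 0.42 and 0.59. These directions hold relative to the 75th percentile only: scaled to the spike-in probes, all 9 values turned positive at day 28 and 8 of them at day 84, and Cox6a1 also turned under quantile normalization. Cox4i2 rose by 0.56 at day 28, Cox6b2 by 0.37 at day 84, and Cox8b, another isoform of heart and muscle, by 1.73 ± 0.14 at day 84 (limma adjusted p = 3.84e-07) with a day 28 value of -0.15.

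**Figure D4:**
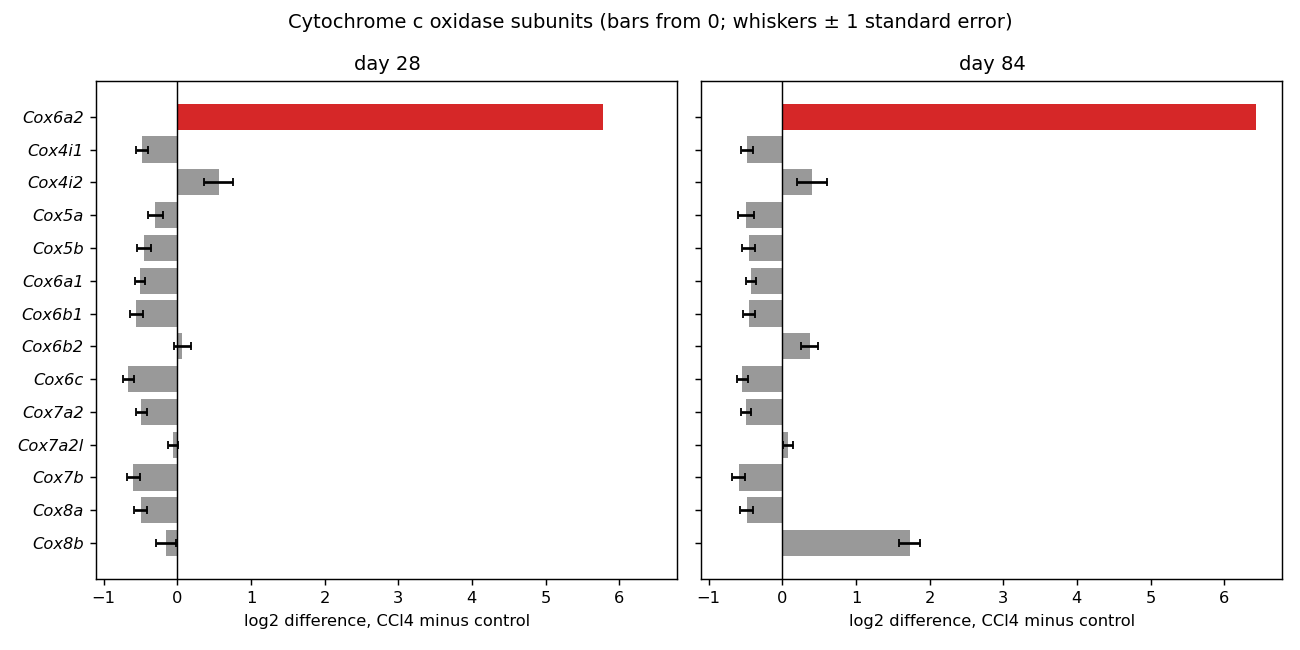
Log2 difference of CCl4 minus control (horizontal axis) for Cox6a2 (red) and 13 other tested subunits of cytochrome c oxidase (grey, whiskers ± 1 SE) at both days. Cox6a2 reaches 5.78 and 6.43, and most other bars lie between -0.67 and 0.56, with Cox8b at 1.73 at day 84.

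Among 15 acyl-CoA synthetase and glycine conjugation genes tested, 2 rose and 6 fell at day 28, and 6 rose and 5 fell at day 84. Acsm2, the nearest gene to Acsm5 on the chromosome and of the same family, rose by 2.33 ± 0.26 at day 28 (limma adjusted p = 6.28e-06) and 3.16 at day 84. With DEN at day 84, where Acsm5 was not called, Acsm2 rose by 2.79 (limma adjusted p = 2.51e-06). Acsm1 fell by 1.23 and 0.80, and Acsm3 rose by 0.77 at day 84. The mitochondrial acetyl-CoA synthetase Acss1 rose by 0.71 and 1.36. The long-chain synthetase Acsl1 fell by 1.33 and 1.46, and Glyat, which joins acyl-CoAs to glycine, by 1.81 and 1.59. Falls were also called for Acss2 (1.85), Glyatl1 (0.72) and Glyatl2 (0.45) at day 28 and for Acss3 (0.62) and Glyatl1 (1.25) at day 84, where Acsl3, Acsf2 and Acsf3 rose by 0.90, 0.87 and 0.29.

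In the list of syntenin and syndecan genes, 3 of 8 rose and 4 fell at day 28, and 3 rose and 3 fell at day 84. Sdcbp, the gene of syntenin-1, rose by 0.80 ± 0.12 and 0.90, and the exosome tetraspanin Cd63, a syntenin partner, by 1.88 and 2.55. The syndecans moved in both directions: Sdc2 fell by 1.35 and 1.52, Sdc4 by 1.27 and 0.85, and Sdc1 by 0.35 at day 28, while Sdc3 rose by 0.85 at day 28. Pdcd6ip fell by 0.38 and 0.55, and Arf6 rose by 0.43 at day 84.

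Of the Gucy2c list, 8 of 18 genes were tested; 3 rose and 1 fell at day 28, and 5 rose and 1 fell at day 84. Its ligand gene Guca2a rose by 0.60 at day 84, and Guca2b, the gene of uroguanylin, did not pass the filter. Cftr, the chloride channel that cyclic GMP opens in the gut, was at least 3.40-fold higher at day 28 (limma adjusted p = 0.0088) and at least 21.9-fold at day 84 (adjusted p = 6.96e-06); it also stands in the cholangiocyte list. Pde5a, which degrades cyclic GMP, rose by 1.72 and 1.75, and Gucy1b1, a subunit of the soluble guanylate cyclase, by 0.80 and 0.98, while Gucy1a2 fell by 0.56 at day 28. The natriuretic peptide receptor genes split at day 84, with Npr2 up by 0.78 and Npr1 down at -0.35.

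Among 12 tested fucosylation genes, 5 rose and 4 fell at day 28, and 6 rose and 4 fell at day 84. Fut7, a leukocyte fucosyltransferase, was at least 5.86-fold and 6.81-fold higher (limma adjusted p = 2.43e-05 and 3.82e-06), and Fut4 rose by 1.19 and 1.54. Gmds, the first enzyme of GDP-fucose synthesis, rose by 1.83 and 2.00 from controls below background, with no bound above 1 at day 28 and a bound of 1.06-fold at day 84. Pofut2 rose by 0.74 and 0.27 and Fuca2 by 0.28 on both days, and Abo rose by 0.98 at day 84. The core fucosyltransferase Fut8 fell by 0.69 and 0.34, Gfus by 0.23 and 0.25 and Fpgt by 0.52 and 0.32, with Fuca1 lower by 0.16 at day 28 and Slc35c1 by 0.22 at day 84. Fut2, the closest relative of Fut1, did not pass the filter.

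The Colq list moved least. Of 6 tested genes, 0 rose and 1 fell at day 28, and 2 rose and 1 fell at day 84. Ache, the enzyme that Colq anchors, read 0.07 and -0.88, and Bche -0.30 and 0.02, none of them called. Prima1, the membrane anchor of the same enzyme, fell by 0.69 and 0.51. Lrp4 and Dag1, receptors at the neuromuscular junction, rose by 0.34 and 0.26 at day 84.

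Tissues that normally express some members were checked by marker lists. The counts stand beside 26.1% of all genes tested that rose and 33.6% that fell with CCl4 at day 28. At day 84 these shares were 28% and 36.3%. In bulk liver, fewer cells of a type and less RNA per cell cannot be told apart. Of 18 muscle markers 8 were tested, and Acta1, Ckm, 5 myosin heavy chain genes and Myl1 were among the 10 that did not pass the filter. The summed scaled signal of the 8 was 1.84 to 2.45 in controls, 3.54 to 5.30 with CCl4 at day 28 and 5.46 to 7.15 at day 84, and 3 of the 8 rose at each day: Tnnc2 by 2.57 and 2.26, Tnnt2 by 2.75 and 4.35, and Actn3 by at least 4.95-fold and 3.43-fold. Actc1 fell by 0.65 and 0.95 and Tnni3 by 0.52 at day 28, and the median of the 8 was 0.17 and 0.62. With normexp 3 rose and 5 fell at day 28. Of 12 intestinal markers 6 were tested, while Cdx1, Cdx2, Vil1 and Muc2 did not pass; 4 of the 6 rose and 1, Cdh17, fell at each day, and their summed signal was 23.7 to 31.8 with CCl4 at day 28 against 27.9 to 32.8 in controls, and 19.6 to 20.7 at day 84 against 35.1 to 39.6. What muscle or intestinal cells might add to Cox6a2, Colq or Gucy2c was not tested.

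Markers of other liver cells moved with CCl4 as well. Of all genes tested 26.1% rose and 33.6% fell at day 28, and 28% and 36.3% at day 84. Of 9 tested cholangiocyte markers 6 rose at day 28, and 8 rose and 1 fell at day 84, and their summed signal went from 2.37 to 3.09 in controls up to 9.33, 13.9 and 6.37 in replicates 1, 2 and 3 of CCl4 at day 28. With normexp 3 of the 9 rose and 1 fell at day 28, with a median of 0.44 in place of 1.43. In the same 3 arrays Gucy2c read 0.03, 1.08 and -1.07. This order was not particular to cholangiocyte markers. The summed signals of dividing cell (97.1, 110 and 75.9), muscle (3.84, 5.30 and 3.54) and intestinal markers (23.8, 31.8 and 23.7) had it too. By day 84 the cholangiocyte sum was 7.04, 10.9 and 6.07 with DEN and 14.5, 11.0 and 12.3 with CCl4. Of 11 stellate cell markers 9 rose at each day, of 7 dividing cell markers 7, and of 6 T cell markers 5 at day 28 and 4 at day 84. Of 11 macrophage markers 4 rose and 5 fell at each day, while 2 and 4 of 5 markers of sinusoidal endothelium and 11 and 10 of 12 hepatocyte markers fell and none of either rose. Median differences were -0.29 and -0.72 for endothelium and -1.07 and -0.71 for hepatocytes. These falls hold relative to the 75th percentile, which itself lay 0.80 and 0.55 higher over the spike-in probes with CCl4. The part of these cells in the members' values was not tested.

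Genes whose pattern over the 18 arrays was most like a member's were ranked by the root-mean-square (RMS) difference in log2 signal, each gene taken relative to its mean over the 6 control arrays. Closest to Gucy2c was Cdhr5 (RMS 0.64), a protocadherin of the brush border and 1 of the intestinal markers, followed by Fabp4 (1.07) and Phgdh (1.11). Cdhr5 read 0.35, 1.45 and -0.44 with CCl4 at day 28 and -1.53, -0.36 and -2.17 with DEN at day 84. In both groups replicate 2 was the highest and replicate 3 the lowest, as for Gucy2c. Nothing is read from this order, since Cdhr5 was picked for its likeness on these same arrays. The first principal component had the same order too, at 38.1, 75.7 and 25.4 (CCl4, day 28) and 16.5, 31.5 and 7.35 (DEN, day 84). With CCl4 at day 84 the order differed, as Cdhr5 read 1.17, 1.26 and 1.64 and was highest in replicate 3. Closest to Aard were Itgb6 (0.70), an epithelial integrin, Dcdc2 (0.71), a protein of the primary cilium, and Serpina16 (0.74). Itgb6 too was highest in replicate 2 of CCl4 at day 28, at -0.07 against -2.22 and -2.49, but it was likewise picked on these arrays.

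Closest to Fut1 was Fgf21 (RMS 0.56), a hormone that liver secretes under stress, then Ccn1 (0.63) and Mex3b (0.65). Fgf21 is also the neighbour of Fut1 on the chromosome in the RefSeq table, with 0 genes between them. Fgf21 read -3.48, -0.67 and -1.10 in controls at day 28, 0.96, 1.30 and 0.61 with CCl4 at day 28, and 0.11, 0.28 and -0.15 with CCl4 at day 84. It rose by 2.71 ± 0.56 with CCl4 at day 28 (limma adjusted p = 0.000889) and read 0.46 at day 84. The neighbour on the other side, Rasip1 with 1 gene between, read 0.12 at day 28 and rose by 0.55 at day 84.

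The remaining members had less similar partners. For Cox6a2 they were Lypd1 (RMS 1.04), Cthrc1 (1.05) and Lcn2 (1.17), for Sdcbp2 Spp1 (1.09), Cenpf (1.09) and Cenpw (1.24), for Acsm5 Spp1 (1.05), Sult2a6 (1.07) and Fbp2 (1.08), and for Colq Rnf186 (0.97), Blnk (0.99) and Cenpf (1.05). Among the members themselves the closest pair was Sdcbp2 and Gucy2c (1.36) and the most distant Gucy2c and Fut1 (2.96). No member was therefore as close to another member as to the 3 genes named for it. Those 3 were the closest of all other genes tested, while the members are few, so nothing is read from this. Of the 14 nearest tested neighbours on either side of the 7 members, 5 rose and 2 fell with CCl4 at day 28, and 3 rose and 2 fell at day 84. Among all genes tested 26.1% rose and 33.6% fell at day 28, and 28% and 36.3% at day 84. Nothing is read from these counts. At day 28 the rises besides Acsm2 and Fgf21 were Snph next to Sdcbp2 (1.24, limma adjusted p = 0.000428) and Rad21 and Med30 near Aard (0.65 and 0.23). Of the genes next to Cox6a2, Colq and Gucy2c, Itgad, Eaf1 and Plbd1 read -0.04, -0.16 and -0.44 at day 28 and were not called, and Itgad rose by 0.47 at day 84. The falls were Armc5 near Cox6a2 (-0.20 and -0.22) and Hacl1 near Colq (-1.27 and -2.17).

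**Figure D5:**
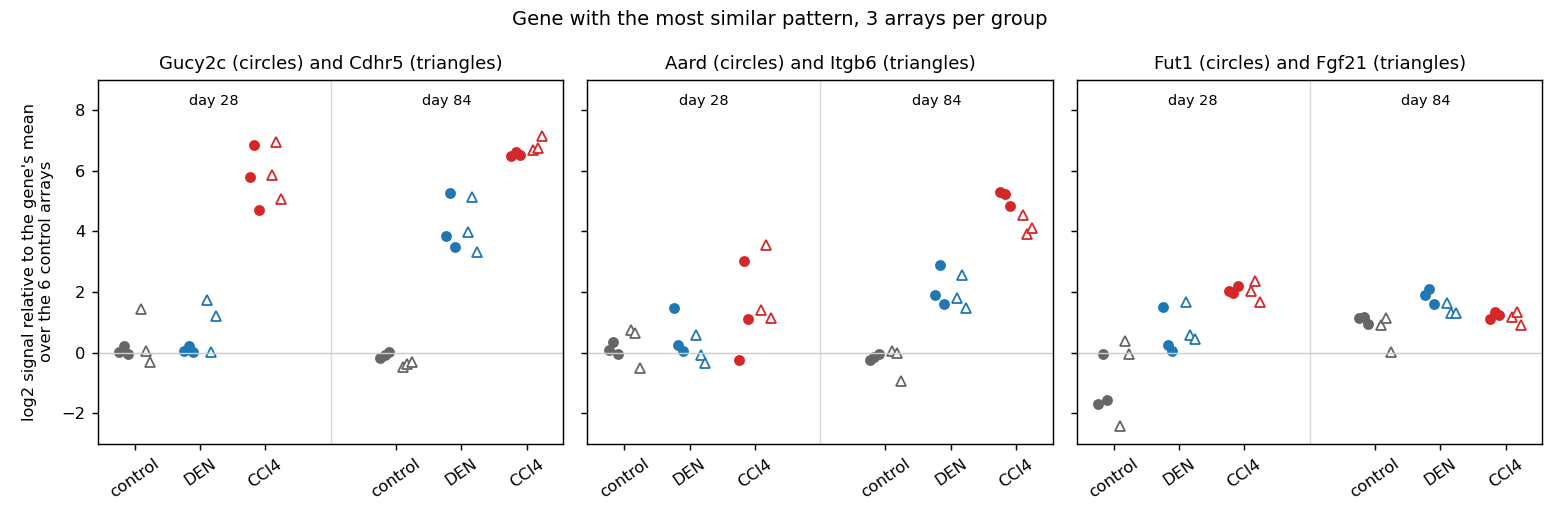
Log2 signal relative to each gene's own mean over the 6 control arrays (vertical axis), by group and day, for Gucy2c with Cdhr5, Aard with Itgb6 and Fut1 with Fgf21 (filled circles for the member, open triangles for the other gene, 3 arrays per group). Gucy2c and Cdhr5 are high with CCl4 at both days and with DEN at day 84, Aard and Itgb6 mainly at day 84, and Fut1 and Fgf21 differ from controls mainly at day 28.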

How the data were processed

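Per the submitters' processing notes, the authors extracted signals with Agilent Feature Extraction (version 10.7.1.1); the deposited scanner files hold intensity values. The authors' deposited value table is on a linear ratio scale and was checked to equal the processed signal over 1 constant per array (100% of probes within 0.01 log2). Of 61537 probes, 28206 matched 1 gene by RefSeq accession, 33331 matched none and were not used here, and 18 with an outlier mark were left out.

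Log2 processed signals minus each array's 75th percentile were fitted with limma 3.58.1 in R 4.3.3 (6 group means, 12 residual degrees of freedom) over 10914 genes with a probe well above background on all 3 arrays of a group. Adjusted p-values (Benjamini-Hochberg, threshold 0.05) pool the spread of all groups; 3 arrays per group limit the precision. Members and lists were chosen with earlier results of these data known. Named genes were the members, partner genes called with CCl4, the 3 most similar genes per member, and the first markers of a list or those called. Python 3.11.15, pandas 2.3.3 and matplotlib 3.10.9 read the files and drew the plots. The fit was tested on simulated data. A marker gene is not reported by name here.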

Additional observations from a re-analysis of the deposited data

Results flagged for a closer look

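The effect of DEN differed between the days for 2 of the 7 genes, by a test of that difference itself. For Gucy2c the effect at day 84 minus that at day 28 was 4.26 (limma adjusted p = 0.000946) and 1.18 with normexp background correction (adjusted p = 0.0909), with DEN arrays above every control at day 84 and within the range of background at day 28. For Sdcbp2 it was 3.15 (limma adjusted p = 0.000746) with the brightest probe and -0.26 (adjusted p = 0.709) with the second probe, which was below background in these groups. The value of 3.15 includes a shift of -1.13 between controls that were undetected on both days. The DEN arrays of Sdcbp2 alone were 2.01 higher at day 84 (at least 1.85-fold). Both tests use the controls on which the members were picked.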

How the results depend on the processing

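Without a test, the CCl4 differences kept their direction under every scaling and background setting except for Aard at day 28 and Fut1 at day 84, which turned to -0.15 and -0.18 with normexp background correction. Depth here is signal over background: 4 of the 7 genes were below background on most control arrays and Fut1 on those of day 28, so fold changes against undetected groups are bounds, and normexp with an offset of 50 shrinks such differences by its construction. Among 754 recomputed values of the members, 631 kept their direction and their side of the threshold or stayed within the spread of replicates, 45 lost a call, 11 gained one, 60 moved by more than the spread and 7 turned sign; of 1471 values of partner genes 129 lost a call and 39 turned sign. The replicate numbers of the titles did not pair the arrays (correlations of deviations between -0.05 and 0.13), and a replicate block gave 3, 4, 2 and 4 called members for DEN at day 28, DEN at day 84, their difference and the controls, where Colq with DEN at day 84 was added (limma adjusted p = 0.0454).

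The median CCl4 difference of the members was 2.43 and 1.50 (day 28 and day 84) with normexp, 6.54 and 5.49 scaled to the spike-in probes, 4.78 and 3.83 with second probes (5 members) and 4.81 and 3.63 with the dimmest of 3 probes (2 members). For DEN at day 28, 3 called members became 0 with normexp, 1 with only probes detected on all arrays, and 0 with second and 0 with the dimmest of 3 probes; leaving out 1 array gave 1 to 2. For DEN at day 84, 3 became 6 with spike-in scaling. That scaling called 7739 of 10914 genes, 96.2% of them higher, in place of 5750, so nothing is read from the gain. The count became 5 with only the groups compared, and 2 with normexp, as Aard was lost (0.026, limma adjusted p = 0.860). With only probes detected on all arrays and with the dimmest of 3 probes it became 0. Only Cox6a2 and Acsm5 entered these 2 settings in any comparison. Neither was called for DEN at day 84 in the main fit, so this 0 was fixed beforehand. The DEN effect between days was called for 1 member with normexp (Gucy2c was lost), 1 with second probes, and 0 with the dimmest of 3 probes or with only probes detected on all arrays. That 0 was again fixed beforehand, as Cox6a2 and Acsm5 were not called in the main fit. Between control days, where calls are no test of the members, 4 became 1 with normexp, 2 without a filter, 1 with only probes detected on all arrays, 0 with slide as a block, 2 with it as a random block, 2 with second probes, 1 with the dimmest of 3 probes and 2 to 3 on leaving out 1 array. Partner genes called with DEN at day 28 were 4 with normexp, 19 with spike-in scaling, 4 without a filter and 2 to 6 on leaving out 1 array, in place of 7. Of 10914 genes tested, 1218 were called with normexp and 3590 with spike-in scaling, in place of 1639. Without a filter it was 1118 of 15642. Nothing is read from these partner counts.

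With the second probe, Sdcbp2 read -0.36 for DEN and -0.11 for CCl4 at day 84 and -0.26 for the DEN effect between days, and between control days Cox6a2 read 0.70 and Colq -0.27. With normexp, Gmds read -0.18 with CCl4 at day 28. Under quantile normalization Cox6a1 read 0.21 and Fuca1 0.13 at day 28, and Cox6a1 0.075 and Slc35c1 0.00023 at day 84.

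Scaled to the spike-in probes, falls with CCl4 at day 28 turned to Cox4i1 0.32, Cox5a 0.50, Cox5b 0.35, Cox6a1 0.29, Cox6b1 0.24, Cox6c 0.13, Cox7a2 0.31, Cox7b 0.20, Cox8a 0.30, Sdc1 0.45, Pdcd6ip 0.42, Glyatl1 0.077, Glyatl2 0.35, Prima1 0.11, Gucy1a2 0.24, Fut8 0.11, Gfus 0.57, Fpgt 0.28 and Fuca1 0.63. At day 84 they turned to Cox4i1 0.075, Cox5a 0.062, Cox5b 0.093, Cox6a1 0.13, Cox6b1 0.099, Cox6c 0.0033, Cox7a2 0.057, Cox8a 0.066, Pdcd6ip 0.0028, Prima1 0.037, Npr1 0.20, Fut8 0.21, Gfus 0.30, Fpgt 0.23 and Slc35c1 0.33. This scaling moved the median of all genes from -0.06 to 0.74 with CCl4 at day 28 and from -0.10 to 0.45 at day 84, and the share of called genes that were higher from 43.7% to 94.2% at day 28.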
